A study of Mus musculus with 2 samples.

Results

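The 9 genes described here, Plvap, Cav1, Cav2, Cavin1, Cavin2, Cavin3, Emcn, Cd34 and Ehd4, build caveolae, the diaphragm of fenestrae and the sugar-rich surface of capillary endothelium. They were taken by exact symbol from the 32285 genes of the deposited count tables, and each of the 9 was found there. Liver sinusoidal endothelial cells (LSECs) of control and Maf LSEC-KO mice were compared by droplet single-cell RNA-seq at the 3′ end of mRNA, with 1 library per condition. Maf LSEC-KO mice carried the Clec4g-iCre transgene (tg/wt), in which the Clec4g promoter drives Cre recombinase selectively in LSECs, together with Maf fl/fl. Controls were littermates without the transgene (Clec4g-iCre wt/wt) and with 1 or 2 floxed Maf alleles, which the labels call WT. Each library came from the pooled livers of 3 mice, and endothelial cells were enriched with magnetic beads against CD146, the product of Mcam. Mice of both sexes, at ages of 3 or 6 months, were used in the study, and which of these entered the pools is not given in the sources used here. Pooled mice, sex, age, preparation and genotype therefore cannot be told apart, no test between conditions was possible, and every interval below is a 95% interval for counting error only.

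Caveolae are flask-shaped pits of the plasma membrane. Caveolin-1 shapes them together with caveolin-2, cavins coat them, and EHD proteins sit at or near their neck. PLVAP forms the diaphragms that span caveolae and fenestrae, which the open fenestrae of healthy liver sinusoids lack, while CD34 and endomucin are sialomucins that cover the luminal surface of many continuous capillaries and veins. MAF is a transcription factor of the basic leucine zipper class.

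In the GENCODE M21 annotation of GRCm38 (mm10) all 9 are protein-coding genes. Cav2 (chr6:17281185-17289115) and Cav1 (chr6:17306335-17341452) lie side by side on the plus strand, 17.2 kb apart with 0 protein-coding genes between them. Both overlap the antisense gene Gm15581. Plvap lies at chr8:71497765-71511752 on the minus strand, with an exon overlapped by Gtpbp3 on the other strand. Cavin1 lies at chr11:100956733-100970887 (minus), Cavin2 at chr1:51289126-51302960 (plus) and Cavin3, the shortest at 2.2 kb, at chr7:105480083-105482300 (minus). Cd34 lies at chr1:194938819-194961279 (plus), Emcn at chr3:137341067-137432185 (plus) and Ehd4 at chr2:120089175-120154606 (minus). The 3′ chemistry keeps the strand of the mRNA, but whether the counting used it is not given in the sources used here, so reads of overlapping antisense genes may be mixed with those of Cav1, Cav2, Cavin2, Cavin3, Cd34 and Plvap.

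The 250 bases before the RefSeq start site (GRCm38.p6) were searched for 5 short motifs on both strands, and 7 of the 9 genes had an entry. Plvap and Cavin3 had none. Windows are printed for the adjacent caveolin genes, whose ratios between the libraries differed in sign, and for both sialomucins. Capitals mark every match to a searched motif and lower case all other bases, on the strand of the gene and 5′ to 3′. The windows are chr6:17306085-17306334 for Cav1, chr6:17280935-17281184 for Cav2, chr1:194938571-194938820 for Cd34 and chr3:137340828-137341077 for Emcn, all on the plus strand.
Cav1: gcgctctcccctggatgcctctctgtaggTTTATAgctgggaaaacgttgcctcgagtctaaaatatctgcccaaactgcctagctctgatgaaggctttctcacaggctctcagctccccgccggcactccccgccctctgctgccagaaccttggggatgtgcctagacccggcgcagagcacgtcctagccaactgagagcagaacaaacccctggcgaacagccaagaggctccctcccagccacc
Cav2: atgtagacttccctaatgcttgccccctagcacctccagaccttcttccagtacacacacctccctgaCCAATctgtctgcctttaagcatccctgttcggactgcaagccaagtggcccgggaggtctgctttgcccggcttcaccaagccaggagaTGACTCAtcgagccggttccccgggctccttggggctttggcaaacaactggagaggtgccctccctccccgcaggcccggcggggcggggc
Cd34: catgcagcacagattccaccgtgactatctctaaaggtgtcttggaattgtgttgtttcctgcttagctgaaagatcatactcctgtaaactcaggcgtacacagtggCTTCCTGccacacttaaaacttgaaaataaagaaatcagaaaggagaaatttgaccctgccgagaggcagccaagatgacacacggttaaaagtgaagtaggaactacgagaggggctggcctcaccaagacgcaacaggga
Emcn: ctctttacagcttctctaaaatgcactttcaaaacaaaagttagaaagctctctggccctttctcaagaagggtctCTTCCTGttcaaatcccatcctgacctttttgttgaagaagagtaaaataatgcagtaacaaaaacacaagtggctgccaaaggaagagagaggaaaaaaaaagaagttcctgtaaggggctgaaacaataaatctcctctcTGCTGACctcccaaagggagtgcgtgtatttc
The Maf half-site TGCTGAC was found in 3.81% of all 32851 RefSeq promoter windows of this length and, among these genes, in that of Emcn alone, 32 bases before the start. The AP-1 motif TGANTCA, which other basic leucine zipper factors bind, was found in 6.75% of windows and in that of Cav2, 92 bases before the start. The ETS motif CAGGAAG, present in 10.8% of windows, was found on the other strand in those of Cd34 (142 bases before the start) and Emcn (174 bases). The TATA box TATAAA, in 12.4% of windows, was found in the printed window of Cav1, on the other strand 221 bases before the start. RefSeq gives Cav1 a second start, whose window (chr6:17307390-17307639, 60.8% G or C) held 0 matches. The CCAAT box CCAAT, in 33.8% of windows, was found in those of Cav2, Cavin1, Cavin2 and Ehd4. The windows of Cav1 and Cav2 held 59.6% and 62.0% G or C and those of Cd34 and Emcn 46.4% and 40.8%, against a median of 52.4% over all windows. A match describes letters only, and its use by a factor was not tested.

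The control library held 5664 barcodes with 47681895 UMIs (unique molecular identifiers, each of which marks a captured mRNA molecule) and that of Maf LSEC-KO mice 7091 barcodes with 89872764 UMIs. After quality limits, removal of likely doublets and selection of endothelial clusters, cells without a Vwf UMI were taken as LSECs, which left 4114 control LSECs (median 8416.5 UMIs) and 3252 Maf LSEC-KO LSECs (median 13870.5 UMIs). Levels are given as CPM, the UMIs of a gene per 1000000 UMIs outside mitochondrial and ribosomal protein genes, summed over the cells of a group. All 14 endothelial marker genes were detected in both sets of LSECs, at a summed level of 19962 CPM in control and 13966 CPM in Maf LSEC-KO. Among markers of other cells, the 7 stellate cell genes summed to 123.9 and 135.3 CPM, the 10 Kupffer cell genes to 70.7 and 122.3 CPM, and the 4 lymphatic endothelial genes to 8.25 and 62.1 CPM in control and Maf LSEC-KO LSECs. The 4 erythroid genes summed to 1239.7 and 14.2 CPM, the 7 hepatocyte genes to 190.9 and 74.4 CPM, and the 5 cholangiocyte genes to 106.1 and 11.9 CPM. The 6 genes of central vein endothelium summed to 519.5 and 100.3 CPM, and the 7 genes of portal or arterial endothelium to 958.7 and 1064.2 CPM. The 6 plasmacytoid or dendritic cell genes were at 1039.4 and 1301.6 CPM, the 8 T or NK cell genes at 1.18 and 7.34 CPM and the 6 B cell genes at 5.53 and 5.55 CPM. The 8 neutrophil or monocyte genes were at 79.6 and 185.4 CPM, and the 10 proliferation genes at 199.9 and 1209.3 CPM. The part of such cells or of their RNA in the levels below was not tested, beyond the values given without the cells concerned. Only 10 cell barcodes were shared between the libraries. Maf itself was at 3447.5 CPM in control and 124.3 CPM in Maf LSEC-KO LSECs, 27.7-fold lower, and a Maf UMI was found in 99.3% and 21.4% of LSECs.

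The comparison of both libraries asks how far the caveolar, diaphragm and surface genes differed in LSECs after deletion of Maf. Cavin3 and Cd34 were more than 10-fold higher in the Maf LSEC-KO library, and Cav1 was 2.58-fold (2.43 to 2.74) and Cavin1 2.04-fold higher. Plvap and Ehd4 lay just under 2-fold, and Emcn was 1.78-fold higher. The most abundant coat gene, Cavin2, and Cav2 were slightly lower. Of the 9 genes, 4 were at least 2-fold higher, and 0 were at least 2-fold lower. Under the alternatives tried at this limit the first count was 3 to 5, since Plvap, Ehd4 and Cavin1 lie close to the limit. Over the 9325 genes with at least 10 CPM in either library, 10.4% were at least 2-fold higher and 4.57% at least 2-fold lower. At a limit of 1.5-fold, chosen after these values had been seen, 7 of the 9 were higher, against 21.4% of all genes. The median log2 ratio was 0.96 for the 9 genes and 0.13 for all genes. The 9 genes were chosen with earlier results of these data known, so these counts and medians describe them and test nothing. This holds for the counts and lists below too.

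Among the caveolins, Cav1, the scaffold without which endothelial cells form no caveolae, had 1453 UMIs in control and 4566 UMIs in Maf LSEC-KO LSECs. This amounted to 43.9 CPM (41.7 to 46.2) against 113.2 CPM (110.0 to 116.6), and the log2 ratio was 1.37 (1.28 to 1.45). Cav1 was found in 24.4% of control and 54.7% of Maf LSEC-KO LSECs. Since the Maf LSEC-KO LSECs held more UMIs each, shares were also taken after thinning every LSEC to 2700 UMIs, which left 3708 control and 3065 Maf LSEC-KO LSECs. Cav1 was then found in 8.74% and 17.9% of LSECs, the same order at equal depth. Equal depth here and below means equal UMIs of all genes. In control LSECs 33093394 of 37613019 UMIs lay outside mitochondrial and ribosomal protein genes, and in Maf LSEC-KO LSECs 40324516 of 52166019. Thinned Maf LSEC-KO LSECs thus kept fewer of these UMIs each, which lowers their shares. Cav2, which needs caveolin-1 to reach the cell surface, had the opposite order. Control LSECs held 209.6 CPM (204.7 to 214.6) of it and Maf LSEC-KO LSECs 184.6 CPM (180.4 to 188.8), with a log2 ratio of -0.18 (-0.23 to -0.14). The unthinned share of LSECs with a Cav2 UMI was higher in Maf LSEC-KO (68.3% and 74.3%). At equal depth, which itself lowers the Maf LSEC-KO share somewhat, it was lower (36.0% and 30.5%), as was the CPM. Cav1 thus made up 17.3% (16.5 to 18.1) of the caveolin UMIs of control LSECs and 38.0% of those of Maf LSEC-KO LSECs. Capture at the 3′ end may differ between the genes, so this share is read between groups of cells and not as a ratio of the molecules.

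Of the cavins, Cavin1, the core of the coat, stood at 118.2 CPM (114.5 to 122.0) in control LSECs. The Maf LSEC-KO level was 241.2 CPM (236.4 to 246.0) and the log2 ratio 1.03 (0.97 to 1.08). With each of the 3 other scalings tried this ratio was under 2-fold, at 0.84 to 0.95. Cavin2, a coat subunit that bends membranes, was detected in nearly all LSECs (94.3% and 95.3%) and differed least, at 1183.8 and 1144.2 CPM, with a log2 ratio of -0.05 (-0.07 to -0.03). Its sign turned to 0.05 when cells with a Vwf UMI were kept. Cavin3, a coat subunit that binds protein kinase C delta, was rare in control LSECs, with 100 UMIs in 45 of the 4114 LSECs, 3.02 CPM (2.46 to 3.68). In Maf LSEC-KO LSECs it had 2554 UMIs in 1124 of 3252 LSECs, or 63.3 CPM (60.9 to 65.8). Its log2 ratio, 4.39 (4.10 to 4.69), was the highest of the 9, and after thinning Cavin3 was found in 0.49% and 11.2% of LSECs. Cavin3 therefore made up 0.2% of the cavin UMIs of control LSECs and 4.4% of those of Maf LSEC-KO LSECs, while the share of Cavin2 was 90.7% and 79.0%.

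The few control UMIs of Cavin3 were held by few cells. One merged cluster, cluster 8, which carried genes of stellate and lymphatic cells, had 13 control LSECs, and these held 50 of the 100 control Cavin3 UMIs. In the Maf LSEC-KO library 93 LSECs of this cluster held 15.3% of them. Without cluster 8, a choice made after the values were seen, the log2 ratio of Cavin3 was higher, 5.18. The same 13 and 93 LSECs held 4.96% and 11.2% of the Cav1 UMIs. Of the Cavin3 UMIs in control LSECs, 45.0% were in the 60 LSECs with UMIs of at least 2 stellate cell genes.

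The diaphragm gene Plvap, the only known protein of the fenestral diaphragm, had 5289 UMIs in control and 12395 UMIs in Maf LSEC-KO LSECs. The control level was 159.8 CPM (155.5 to 164.2) and the Maf LSEC-KO level 307.4 CPM (302.0 to 312.8), or 1.92-fold, with a log2 ratio of 0.94 (0.90 to 0.99). At equal depth 25.9% of control and 38.4% of Maf LSEC-KO LSECs had a Plvap UMI. Plvap was uneven among the LSECs of each library, with up to 41 UMIs in a single control LSEC and up to 84 in a single Maf LSEC-KO LSEC, and it was detected in control LSECs well above the level in neutrophil or monocyte-like cells (18.7 CPM).

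Of the surface sialomucins, Cd34, an adhesion molecule of blood precursor cells and capillaries, had a control level of 29.7 CPM (27.9 to 31.7) and a Maf LSEC-KO level of 383.5 CPM (377.5 to 389.6), with a log2 ratio of 3.69 (3.60 to 3.78). It was found in 573 of the 4114 control LSECs, of which 216 had at least 2 UMIs. In the Maf LSEC-KO library 2683 of 3252 LSECs had a Cd34 UMI and 2254 had at least 2, so the higher level was spread over most LSECs and not over a few. At equal depth the shares were 5.80% and 48.9%. Emcn, which encodes the anti-adhesive endomucin, was already frequent in control LSECs (71.5%) where it reached 259.2 CPM (253.7 to 264.8). Maf LSEC-KO LSECs held 460.8 CPM of Emcn (454.2 to 467.5), and its log2 ratio was 0.83 (0.79 to 0.87). The membrane-remodelling ATPase gene Ehd4 had 65.3 CPM (62.5 to 68.1) and 126.6 CPM (123.1 to 130.1), and its log2 ratio was 0.96 (0.88 to 1.03).

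Free RNA in droplets gives UMIs in cells that do not express a gene, and its size was read from neutrophil or monocyte-like cells. The control library had 40 of these (median 3863 UMIs), in a cluster led by the neutrophil genes S100a9 and S100a8. In Maf LSEC-KO there were 86 in a cluster led by the same genes (median 4310.5 UMIs) and 70 in a cluster led by Cd209a and MHC class II genes (median 8284 UMIs), which dendritic cells express too, so only the former is set beside control. Cd34 was at 12.5 CPM (1.51 to 45.0) in the neutrophil-led cells of control and 18.4 CPM (7.39 to 37.9) in those of Maf LSEC-KO, with a UMI in 5.0% and 8.14% of them, against 29.7 and 383.5 CPM in LSECs. The 70 other cells had 86.7 CPM of Cd34, with a UMI in 32.9% of them, although both clusters had like levels of Emcn (39.4 and 38.7 CPM). The mean control level of Cd34 lay within the interval of the 40 control cells, which rests on 2 UMIs. Among control LSECs a single cell held up to 12 UMIs of Cd34. The 1029 control LSECs of the quartile estimated as pericentral, described below, had 6.06 CPM of Cd34 (4.48 to 8.01). The part of free RNA in the control level of Cd34 was not tested. Cavin3 was at 0 and 5.25 CPM in the neutrophil-led cells, where a count of 0 in 40 cells allows up to 18.7 CPM. The mean control level of Cavin3 in LSECs lay under this limit. Its 100 UMIs lay in 45 of the 4114 LSECs, of which 11 had at least 2, with up to 21 in a single one. Cav1 (6.23 and 13.1 CPM), Cav2 (5 and 4 UMIs, 31.1 CPM in control), Cavin1 (0 and 26.3 CPM), Plvap (18.7 and 31.5 CPM) and Emcn (49.8 and 39.4 CPM) were below their LSEC levels in both libraries. The abundant Cavin2 was at 168.1 and 70.9 CPM, with a UMI in 25.0% and 19.8% of these cells, against 1183.8 and 1144.2 CPM in LSECs. Ehd4, at 6.23 and 39.4 CPM in them, was also found outside the endothelium, with 155.0 CPM in the cells led by Cd209a and 168.6 and 229.2 CPM in Kupffer cell-like cells. The 10 Kupffer cell genes were higher in Maf LSEC-KO LSECs, as given above, and the part of Kupffer cell RNA in the level of Ehd4 was not tested directly. Without LSECs that had a UMI of a marker of other cells, the log2 ratio of Ehd4 was 0.97.

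Within the Maf LSEC-KO library LSECs were grouped by their own Maf UMIs, to see whether the levels followed Maf from cell to cell. There were 2557 LSECs with 0 Maf UMIs, 346 with 1, 136 with 2 to 4 and 213 with at least 5, with medians of 13609, 18009.5, 16674 and 10164 UMIs per LSEC. A cell with few UMIs shows fewer Maf UMIs, so the classes mix Maf level and depth. The part of free Maf RNA in the classes with few Maf UMIs was not tested. Cd34 followed the classes most, with 403.6 CPM at 0 Maf UMIs, 373.6 CPM at 1, 371.0 CPM at 2 to 4 and 149.5 CPM at 5 or more. The step lay between the last 2 classes, as the first 3 were close to each other. After thinning, Cd34 was found in 51.0%, 53.4%, 53.2% and 14.8% of these LSECs. Emcn was at 471.6, 442.7, 458.0 and 361.3 CPM and Ehd4 at 127.0, 137.7, 139.2 and 82.5 CPM, again with the lowest value in the last class. Cav1 was at 115.6, 110.4, 115.2 and 86.5 CPM and Cavin3 at 66.0, 54.7, 58.3 and 52.9 CPM, both lowest in the last class too. For Plvap the values were 310.4, 292.6, 326.6 and 284.1 CPM, whereas after thinning it was found in 39.7%, 37.9%, 31.5% and 28.2% of these LSECs, lowest in the last class. Cavin2 ran the other way, from 1127.7 CPM at 0 Maf UMIs to 1294.7 CPM at 5 or more.

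In the ratio of LSECs with 0 to LSECs with at least 2 Maf UMIs, 0 of the 9 genes were 2-fold higher and 0 were 2-fold lower, where 0.759% and 2.94% of 9349 genes were. Cd34 had the highest log2 ratio, 0.65 (0.56 to 0.74), and Cavin2 the lowest, -0.17 (-0.21 to -0.13). The median was 0.20 for the 9 genes and 0.01 for all genes. Several of these ratios moved with the weight given to deep and to cycling cells. That of Plvap was 0.03 from summed UMIs, 0.55 after thinning, 0.44 as the mean CPM per cell and 0.39 without cycling LSECs. Cd34 went from 0.65 to 1.01 after thinning and 1.09 as the mean per cell, Ehd4 from 0.20 to 0.51, 0.45 and 0.55 in the same order, and Cavin3 from 0.25 to 0.48, 0.46 and -0.03. A class of at least 500 CPM of Maf, added after the data had been seen, took in 242 Maf LSEC-KO LSECs. It is tied to depth as well, with a median of 8491.5 UMIs per LSEC, against 18612 in the 453 LSECs with Maf UMIs under this limit and 13609 in those with 0 Maf UMIs. Against these, LSECs with 0 Maf UMIs had 3.67-fold more Cd34 (403.6 and 109.9 CPM), a log2 ratio of 1.88 (1.68 to 2.07). The ratios of Cav1, 0.80 (0.55 to 1.07), Ehd4, 0.74 (0.50 to 0.98), and Plvap, 0.56 (0.42 to 0.70), were also further from 0 than with the limit of 2 UMIs.

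The 242 LSECs with at least 500 CPM of Maf lay above control levels for several of the genes. Against control LSECs their log2 ratio was 1.89 (1.67 to 2.10) for Cd34, 0.77 (0.61 to 0.91) for Cavin1, 0.40 (0.28 to 0.51) for Emcn and 0.40 (0.25 to 0.54) for Plvap. Cav1 was at 66.2 CPM in them and 43.9 CPM in control LSECs, with 0.59 (0.32 to 0.85). For Cav2 it was -0.05 (-0.20 to 0.09) and for Ehd4 0.22 (-0.02 to 0.46), intervals that include 0. Cavin3 stood at 40.3 CPM in them, a log2 ratio of 3.74 (3.30 to 4.17) to control. Its 81 UMIs were not spread evenly. Only 5 lay in the 187 of these LSECs that fell in merged clusters with a control majority, 3.33 CPM (1.08 to 7.76). Another 64 lay in 9 LSECs of cluster 8. Control LSECs held 1.38 CPM of Cavin3 in the clusters with a control majority, from 44 UMIs, and 3.02 CPM over all clusters. Cd34 was at 65.8 CPM (53.5 to 80.2) in those 187 LSECs, between its levels in the neutrophil-led cells (18.4 CPM) and the cells led by Cd209a (86.7 CPM) of this library, and the part of free RNA in it was not tested. Cav1 was at 28.6 CPM (20.7 to 38.5), below its level in control LSECs. These groups were formed after the values had been seen and are given as a description.

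**Figure D1:**
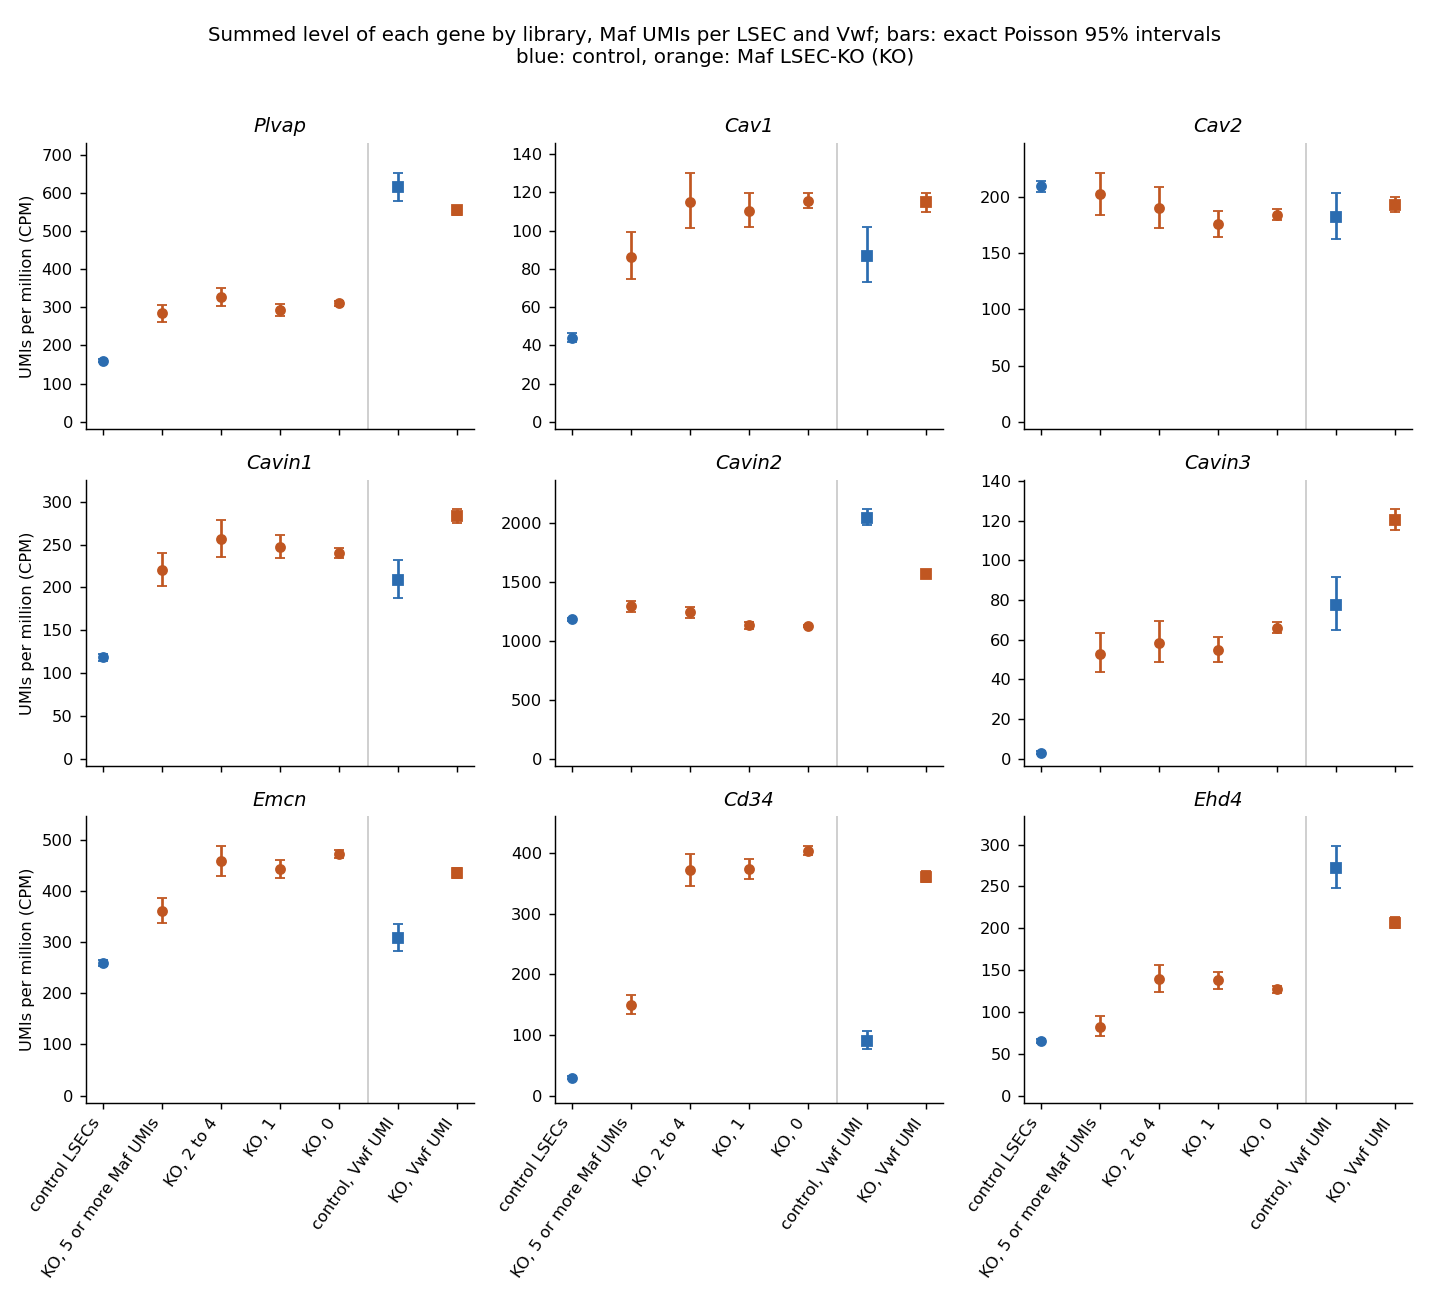
Summed level in CPM (vertical axes) of each gene in control LSECs (blue circles), in Maf LSEC-KO LSECs by Maf UMIs per cell (orange circles) and, right of the grey line, in endothelial cells with a Vwf UMI of both libraries (squares), with exact 95% Poisson intervals as bars. In Maf LSEC-KO LSECs Cd34 is at 371.0 CPM with 2 to 4 Maf UMIs and at 149.5 CPM with 5 or more, while Plvap is at 326.6 and 284.1 CPM in these classes.

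Endothelial cells with a Vwf UMI, which include cells of larger vessels, numbered 161 in control (3.77% of endothelial cells, median 11733 UMIs) and 1182 in Maf LSEC-KO (26.7%, median 15028 UMIs). In the control library they differed most from LSECs in Cavin3, at 77.5 CPM against 3.02 CPM, a log2 ratio of 4.68 (4.30 to 5.07) or 25.6-fold. Ehd4 was at 272.3 CPM, with a log2 ratio to LSECs of 2.06 (1.91 to 2.20). Plvap was at 615.0 CPM, with 1.94 (1.85 to 2.04), and Cd34 at 90.7 CPM, with 1.61 (1.36 to 1.85). These 4 of the 9 genes were at least 2-fold higher in Vwf cells, where 4.06% of 9025 genes were, and 0 were at least 2-fold lower, where 1.86% were. Cav1, at 86.7 CPM, lay just below this limit with a log2 ratio of 0.98 (0.73 to 1.23), and Cav2 was slightly lower than in LSECs, -0.20 (-0.37 to -0.04).

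In the Maf LSEC-KO library the same comparison gave smaller ratios. None of the 9 genes was 2-fold apart, where 1.46% of 9205 genes were higher and 0.239% lower, and the median log2 ratio of the 9 was 0.23, against 0.98 in control. The highest were Cavin3, 0.93 (0.84 to 1.01), Plvap, 0.85 (0.81 to 0.89), and Ehd4, 0.71 (0.65 to 0.77). Cd34 was at 361.0 CPM in Vwf cells and 383.5 CPM in LSECs, and Cav1 at 114.8 and 113.2 CPM, so neither gene set Vwf cells apart any more. Between the libraries, Vwf cells of Maf LSEC-KO mice had more Cd34 than those of control, with a log2 ratio of 1.99 (1.76 to 2.23), more Cavin3, 0.64 (0.38 to 0.90), more Emcn, 0.50 (0.38 to 0.63), more Cavin1, 0.44 (0.28 to 0.59), and more Cav1, 0.40 (0.16 to 0.65). They had less Ehd4, -0.40 (-0.54 to -0.25), less Cavin2, -0.38 (-0.43 to -0.33), and slightly less Plvap, -0.15 (-0.24 to -0.06). Maf was at 1824.9 CPM in control and 29.3 CPM in Maf LSEC-KO Vwf cells.

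The Vwf cells were not of one kind, and the mix differed between the libraries. In control, 67 of the 161 lay in a cluster led by Atp13a3, Igfbp5 and Nrg1, and in Maf LSEC-KO 261 of the 1182 lay in a cluster led by Atp13a3, Gja5 and Nrg1. Vwf cells of these clusters were high in Cavin3 (143 CPM in control and 266 CPM in Maf LSEC-KO), Ehd4 (401 and 432 CPM) and Cavin2 (2611 and 2311 CPM), and low in Cav1 (56 and 90 CPM). The other pattern was found in the central vein endothelium-like cluster of the Maf LSEC-KO library, named from 6 of 6 central vein genes. Its 153 Vwf cells had Plvap at 881 CPM and Cav1 at 136 CPM, with Cavin3 at 62 CPM and Cd34 at 214 CPM. In control the 62 Vwf cells of a cluster that held 4 central vein genes, but also 5 stellate cell genes, had Plvap at 787 CPM, Cav1 at 148 CPM and Cavin3 at 44 CPM. Most of the other Maf LSEC-KO Vwf cells lay in 4 clusters that were mostly LSECs, 78 to 353 of them in each, with Cd34 between 326 and 444 CPM and Plvap between 316 and 586 CPM.

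**Figure D2:**
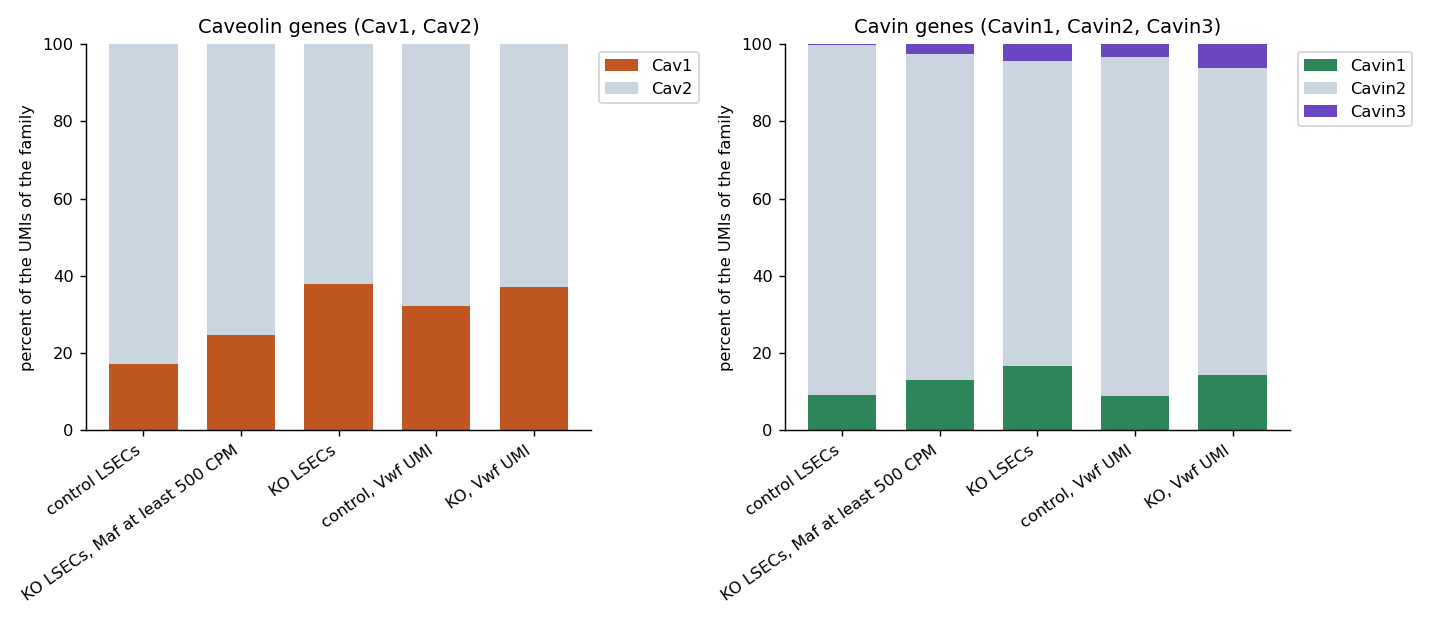
Share in percent of Cav1 and Cav2 among caveolin UMIs and of Cavin1, Cavin2 and Cavin3 among cavin UMIs (stacked vertical bars, from 0 to 100%) for LSECs, Maf LSEC-KO (KO) LSECs with at least 500 CPM of Maf, and cells with a Vwf UMI. The share of Cav1 is 17.3% in control LSECs and 38.0% in Maf LSEC-KO LSECs, and that of Cavin3 is highest in Vwf cells of the Maf LSEC-KO library (6.1%).

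The merged LSECs formed 8 clusters, of which 4 had a control majority (4020 control and 198 Maf LSEC-KO LSECs). As 8 of the 9 genes, all but Cav2, were among the variable genes used to form them, differences between clusters are given as a description. Among Maf LSEC-KO LSECs, the Cd34 level of the 4 clusters with a control majority was 38.3 to 107.4 CPM and reached 342.5 to 475.9 CPM in the other 4, with no overlap. Cavin3 was at 0 to 10.2 CPM and 48.6 to 406.4 CPM in the same clusters, also with no overlap. Cav1 was at 25.6 to 38.3 CPM in the former and at 86.8 to 531.9 CPM in the latter. Emcn was at 238.1 to 378.4 CPM and 442.4 to 661.5 CPM. Plvap overlapped, with 76.5 to 337.5 CPM in the former and 188.0 to 616.9 CPM in the others. The highest values of Cavin3 (406.4 CPM), Cav1 (531.9 CPM) and Plvap (616.9 CPM) were those of cluster 8. As given above, that cluster carried genes of stellate and lymphatic cells. How often other genes were likewise without overlap was not tested, so the separation of Cd34 and Cavin3 has no background to be set against.

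The 2 largest Maf LSEC-KO clusters, cluster 2 with 1349 and cluster 3 with 1069 Maf LSEC-KO LSECs, parted on Plvap more than on any of the other 8 genes. Cluster 2 held 188.0 CPM of Plvap, and cluster 3 held 507.8 CPM, a log2 ratio of 1.43. Cav1 went the other way, with 126.9 and 86.8 CPM and a log2 ratio of -0.55 (-0.66 to -0.44), as did Cd34, -0.32 (-0.38 to -0.27), Cav2, -0.29 (-0.37 to -0.21), and Ehd4, -0.26 (-0.36 to -0.16). Cavin2 did not differ beyond its interval, -0.01 (-0.04 to 0.02). The cluster with more Plvap was thus the one with less Cav1. Cluster 8 had high levels of both, with Plvap at 616.9 CPM, Cav1 at 531.9 CPM and Cavin3 at 406.4 CPM in its 93 Maf LSEC-KO LSECs. At equal depth, Cav1 was found in 16.6% (14.29 to 19.12) of the 952 Maf LSEC-KO LSECs without Maf UMIs that had a Plvap UMI and in 19.9% (17.83 to 22.01) of the 1445 that had none, with overlapping intervals. Cavin3 was found in 14.9% (12.7 to 17.3) of the former and 9.7% (8.2 to 11.3) of the latter.

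In the clusters with a control majority, the Maf LSEC-KO LSECs still had Maf at 2452.9 CPM, against 3522.5 CPM in control LSECs. Cd34 was at 66.3 CPM in the former and 28.3 CPM in the latter, a log2 ratio of 1.23 (0.92 to 1.52). The neutrophil-led cells of the same libraries had 18.4 and 12.5 CPM of Cd34, and the part of free RNA in this ratio was not tested. Cavin1 and Emcn were higher by 0.48 (0.29 to 0.66) and 0.42 (0.29 to 0.54) on the log2 scale, while Cav1 was lower, -0.56 (-1.02 to -0.12). The intervals of Plvap, Cav2, Cavin3 and Ehd4 included 0, with 5 Cavin3 UMIs in Maf LSEC-KO and 44 in control. The 10 proliferation genes were higher in Maf LSEC-KO LSECs, as given above. Without cycling LSECs the log2 ratio of Plvap between the libraries was 1.02, past 2-fold. Between 1061 Maf LSEC-KO LSECs with UMIs of at least 2 of the 10 proliferation genes and the other 2191, the log2 ratios ran from -0.24 for Plvap (-0.29 to -0.19) to 0.12 for Cd34 (0.07 to 0.16).

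**Figure D3:**
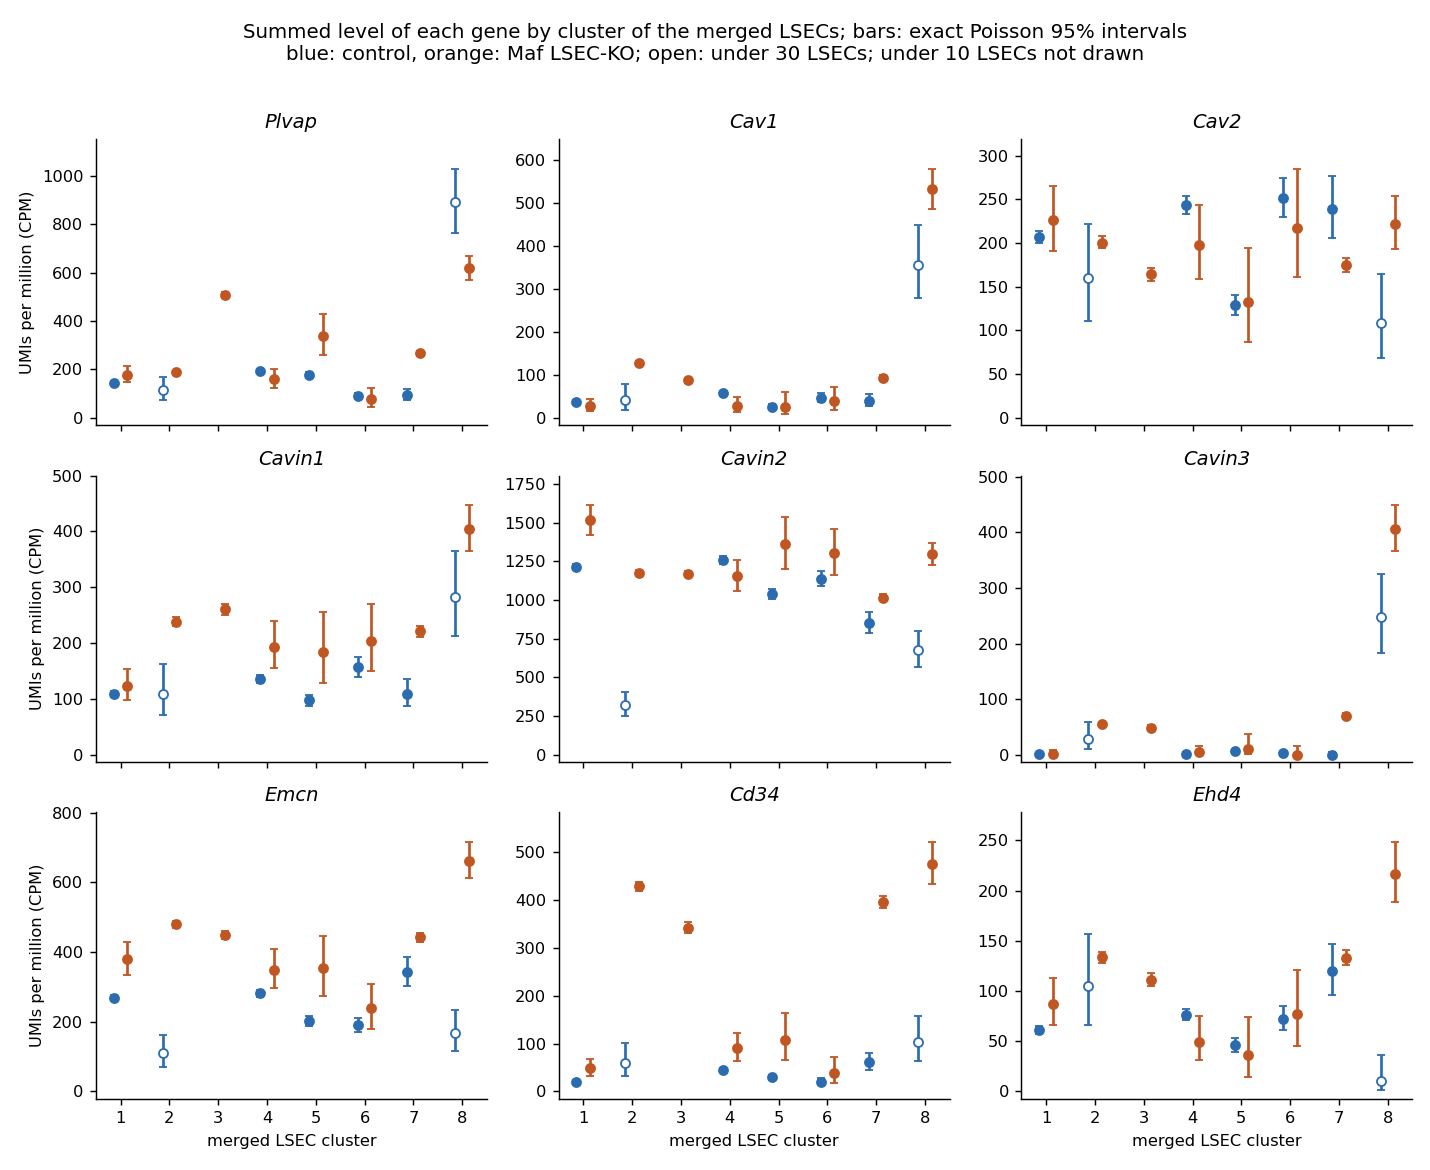
Summed level in CPM (vertical axes) of each gene in the 8 clusters of merged LSECs (horizontal axis), for control (blue) and Maf LSEC-KO (orange) LSECs, with exact 95% Poisson intervals as bars. Open points rest on under 30 LSECs, and groups under 10 LSECs are not drawn. Cd34 in Maf LSEC-KO LSECs is at 107.4 CPM or below in clusters 1, 4, 5 and 6 and at 342.5 CPM or above in clusters 2, 3, 7 and 8.

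Position in the liver lobule was estimated from the ratio of portal to all landmark genes, chosen by their correlation with known pericentral genes, and LSECs of each library were split into quartiles from pericentral to periportal. The 9 genes were left out of the landmarks, and the order of the quartiles is that of an estimated score, not of measured places. There were 28 central and 12 portal landmarks in control but 7 and 24 in Maf LSEC-KO, so the quartiles of the libraries are not the same places. The pericentral gene Wnt2, one of the starting genes of the score and so no check of it, was at 576.6 CPM in the first and 37.7 CPM in the last quartile of control LSECs, and at 110.9 and 0.3 CPM in Maf LSEC-KO.

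In control LSECs the sialomucins had opposite slopes. Cd34 was at 6.1, 14.9, 34.5 and 69.6 CPM from the pericentral to the periportal quartile, 11.5-fold lower in the first than in the last. Emcn was at 334.1, 264.9, 232.7 and 199.9 CPM, higher in the pericentral quartile by 0.74 (0.65 to 0.83) on the log2 scale. Plvap was at 253.5, 160.2, 98.6 and 128.7 CPM, a log2 ratio of first to last quartile of 0.98 (0.87 to 1.09), with its lowest value in the third quartile. Cav1 was at 56.5, 43.8, 42.2 and 31.9 CPM, 0.82 (0.59 to 1.06), and Cav2 ran from 223.6 to 177.1 CPM. Cavin1 was the other gene with more periportal RNA, from 101.2 to 130.1 CPM, a log2 ratio of -0.36 (-0.50 to -0.22). With the starting genes alone as landmarks, Plvap (1.25), Cav1 (0.69), Emcn (0.74) and Cd34 (-3.27) kept their direction. Cavin1 did too, but nearer 0, at -0.16 (-0.31 to -0.02). Cavin3, with few UMIs, turned from 0.41 (-0.27 to 1.10) to -2.32. The last quartile of that order had 0 UMIs of Wnt2 and of Cdh13. Its median was 5195 UMIs per LSEC, against 9084 in the first, so this order mixes position and depth. By landmark genes the last control quartile was also shallower, with a median of 6798 UMIs against 8556 in the first.

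In Maf LSEC-KO LSECs the slope of Cd34 was nearly gone, with 340.7, 394.8, 402.1 and 401.1 CPM and a log2 ratio of -0.24 (-0.31 to -0.17). Plvap had the opposite direction to control, at 195.0, 263.0, 334.4 and 503.0 CPM, a log2 ratio of -1.37 (-1.45 to -1.29). Cavin3 was at 43.3, 52.4, 65.7 and 106.4 CPM, -1.30 (-1.46 to -1.13). The medians of these quartiles were 15092, 16492, 14765 and 10115 UMIs per LSEC, so they mix position and depth as well. The starting genes of the Maf LSEC-KO score, Wnt2 and Cdh13, had 0 UMIs in 2571 of the 3252 LSECs, which a score from them alone cannot order. After the data had been seen, the 681 LSECs with a UMI of either gene (median 16594 UMIs) were set against those 2571 (median 12958 UMIs). For Plvap and Cavin3 the direction was that of the quartiles but the ratios were nearer 0, at -0.30 (-0.37 to -0.24) for Plvap, with 262.3 and 324.0 CPM, and -0.53 for Cavin3. Cav1 was at 0.60 and Cav2 at 0.21, against 0.72 and 0.12 by quartile, while Cavin2 turned from -0.14 to 0.11. The same split of control LSECs, 2754 and 1360 with medians of 9552 and 5392.5 UMIs, gave 0.66 (0.55 to 0.76) for Plvap and -1.62 for Cd34. For Cavin1 it gave -0.08 (-0.18 to 0.03), an interval that includes 0. The size of the opposite slope of Plvap thus depended on how position was estimated. Cav1, at 147.4, 116.7, 90.6 and 89.5 CPM, was higher in the pericentral quartile as in control, with a log2 ratio of 0.72 (0.59 to 0.85). Maf was at 280.1 CPM in the first and 47.1 CPM in the last Maf LSEC-KO quartile.

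**Figure D4:**
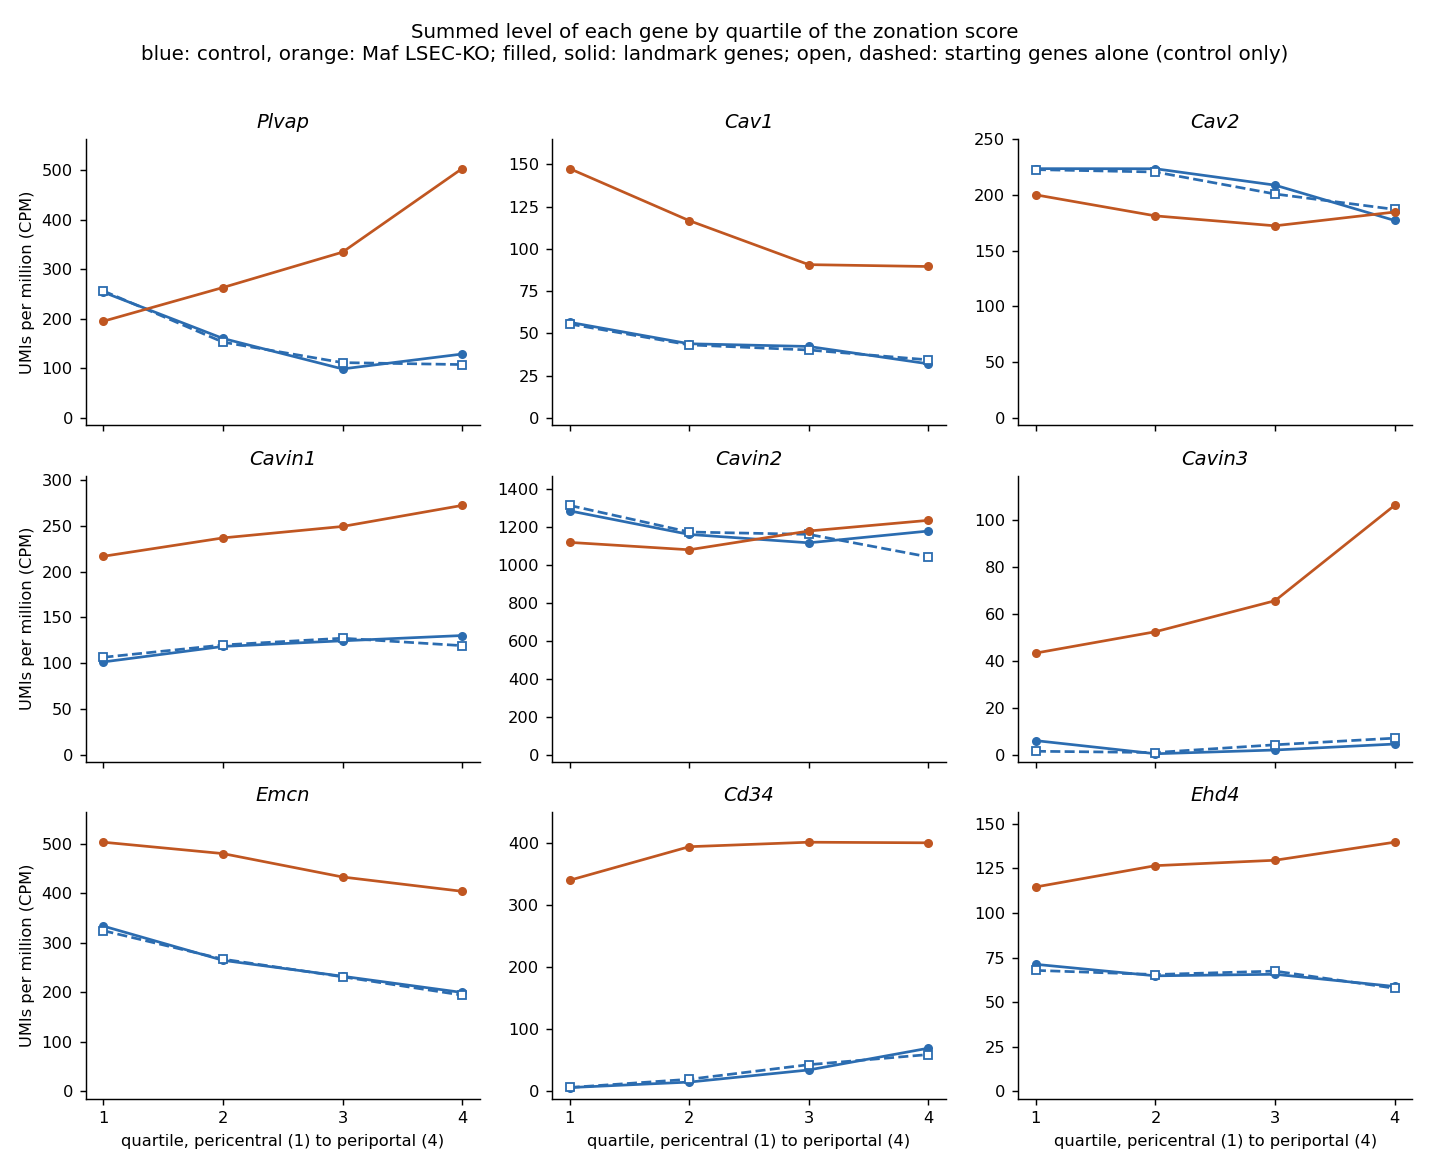
Summed level in CPM (vertical axes) of each gene by quartile of the zonation score (1 pericentral, 4 periportal), in control (blue) and Maf LSEC-KO (orange), with landmark genes (filled, solid) or, in control only, starting genes alone (open, dashed). Plvap goes from 253.5 to 128.7 CPM in control and from 195.0 to 503.0 CPM in Maf LSEC-KO with landmark genes, while Cd34 in control goes from 6.1 to 69.6 CPM.

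Other genes of the same structures did not share one direction. Of 11 genes for the coat, neck and scission of caveolae and for the nitric oxide synthase found in them, 6 reached 10 CPM in LSECs, 0 were at least 2-fold higher and 1 was lower, with a median log2 ratio of -0.01, against 10.4% and 4.57% of all genes. The lower one was Ehd3, a paralog of Ehd4 that marks liver and kidney endothelium with fenestrae, at 4185.2 CPM in control and 1928.6 CPM in Maf LSEC-KO, a log2 ratio of -1.12. The paralogs of the EHD family thus differed in direction, with Ehd4 higher, Ehd3 lower and Ehd1 at -0.35. Ehd2, the family member known at the caveolar neck, was under the limit of 10 CPM and so not counted. It was at 1.5 and 8.9 CPM, from 50 and 357 UMIs, a log2 ratio of 2.55 (2.12 to 3.01). Pacsin2, which bends the neck, was at 0.43, and Dnm2, the dynamin that cuts vesicles off, at -0.52. The synthase gene Nos3 (0.32) and Nostrin (0.52), whose product binds the synthase, were the other 2 of the 6, and both lay above the list's median. The flotillins, which form other membrane domains, were at -0.28 (Flot1) and -0.32 (Flot2).

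The same background of 10.4% and 4.57% holds for the lists that follow. Of 8 sialomucins and related surface genes, 5 reached 10 CPM, and 1 was at least 2-fold higher and 1 lower. Mcam was at 127.4 and 358.7 CPM, a log2 ratio of 1.49, but its product is the antigen of the beads, so its level is part of how cells were selected. Cd300lg, which encodes a mucin-like receptor of capillaries, was at 738.0 and 297.3 CPM, a log2 ratio of -1.31. Podxl, in the CD34 family, was at 0.18, Cd164 at -0.81 and Cd93 at 0.37. Of 18 genes of continuous or diaphragmed capillaries, 14 reached 10 CPM, 5 were higher and 3 lower, with a median of 0.42. The apelin receptor gene Aplnr had 1945 UMIs in Maf LSEC-KO but 2 UMIs in control LSECs, and its log2 ratio was 9.64 (7.79 to 12.69). The other higher ones were Ly6c1 (8.2 and 590.6 CPM, log2 ratio 6.17), Esm1 (13.9 and 112.8 CPM, 3.02), Ly6a (1.70) and the fatty acid-binding protein gene Fabp5 (1.09), and the lower ones were Tspan7 (-2.85), the water channel gene Aqp1 (-1.41) and the tight junction gene Cldn5 (-1.25). Under 2-fold were the fatty acid carriers Cd36 (0.79) and Fabp4 (0.72), and Gpihbp1 (0.04), which anchors lipoprotein lipase. Of 12 genes of discontinuous sinusoidal endothelium, all of which reached 10 CPM, 8 were lower and 0 higher, with a median of -1.35. These were the scavenger receptor genes Stab2 (-3.20) and Stab1 (-1.23), the Fc receptor gene Fcgr2b (-3.43), the nuclease gene Dnase1l3 (-4.93), the mannose receptor gene Mrc1 (-1.82), Gpr182 (-1.48), Clec1b (-1.47) and the VEGF receptor gene Flt4 (-1.11). Lyve1 (-0.85), Clec4g (-0.99), whose promoter drives the Cre, and Oit3 (-0.06) were under 2-fold.

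**Figure D5:**
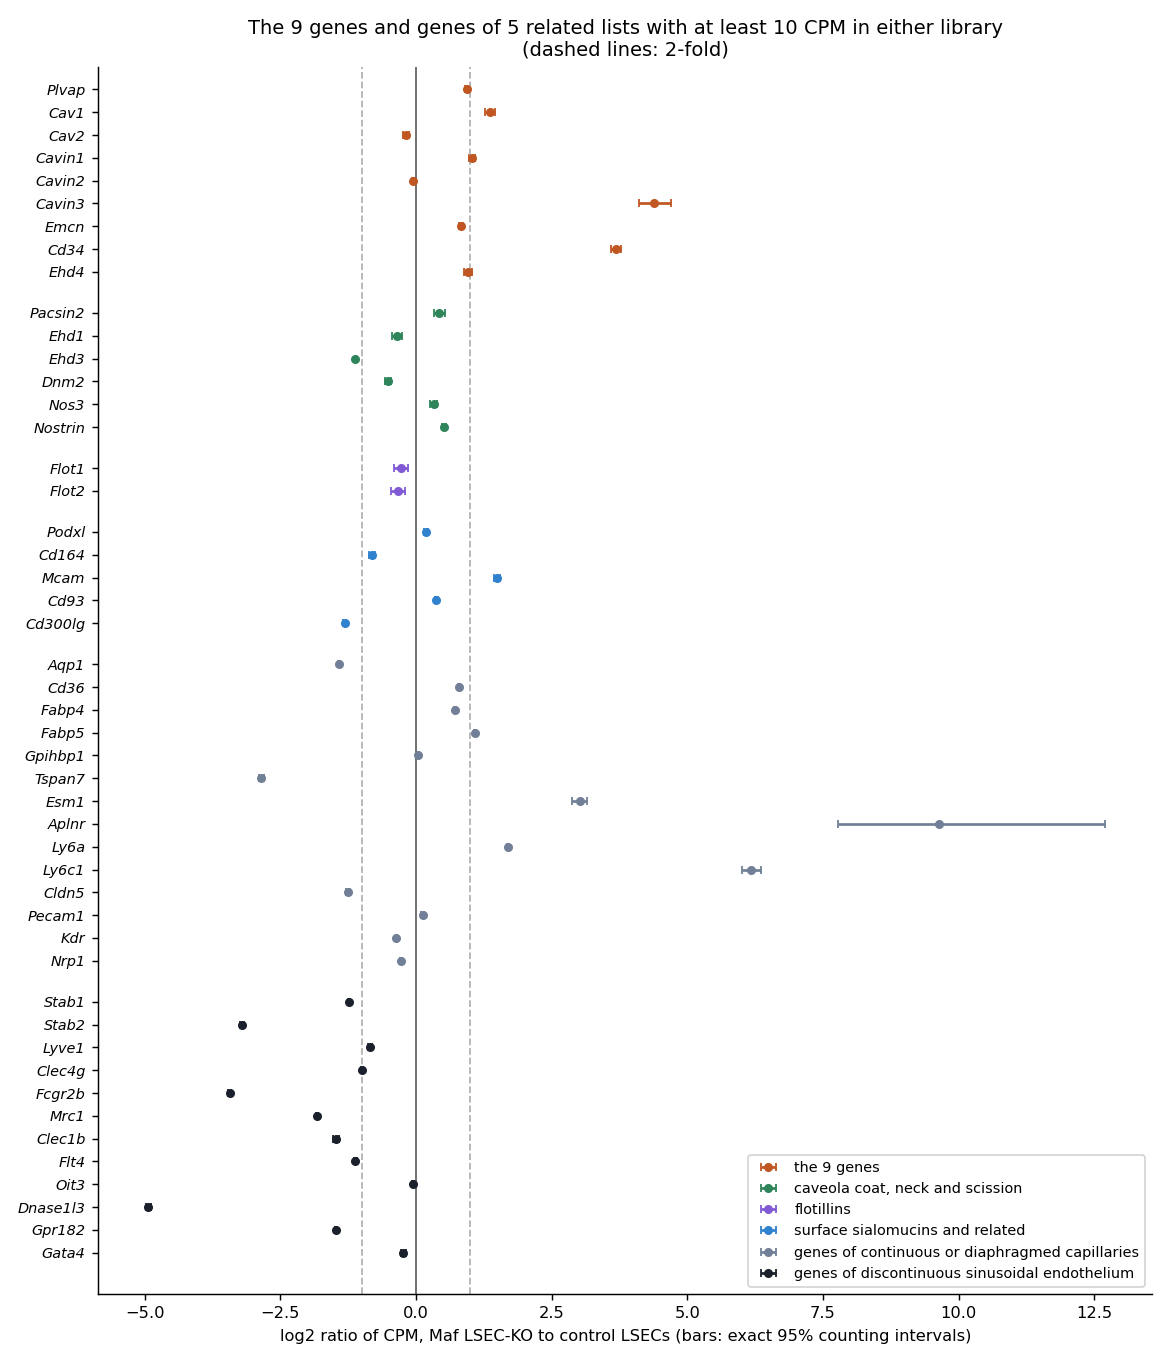
Log2 ratio of summed CPM, Maf LSEC-KO to control LSECs (horizontal axis), for the 9 genes (orange) and for the genes of 5 related lists with at least 10 CPM in either library (vertical axis), with exact 95% Poisson intervals for counting error as bars and dashed lines at 2-fold. Cavin3 (4.39) and Cd34 (3.69) stand apart from the other 7 genes, Cav2 and Cavin2 lie below 0, and 8 of the 12 genes of discontinuous endothelium lie beyond 2-fold lower.

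Over 22 groups of at least 30 cells (library by merged LSEC cluster or other named cell type), the genes most like each of 4 of these genes were sought by Pearson's r of log2(CPM + 10) among 8168 genes. The groups share libraries and free RNA, and other cell types widen the range, so r is a description. For Emcn they were Esam (0.97), Tspan18 (0.97) and Clec1a (0.96). For Cd34 they were Grrp1 (0.93), Ly6c1 (0.91) and Peg10 (0.90). For Plvap they were Efnb2, Col4a1 and Smad7 (each 0.91), and for Cav1 Selenom (0.91), Hspb1 (0.88) and Fstl1 (0.88). Among the 9 genes, r was highest for Plvap with Emcn (0.90) and for Cav2 with Cavin2 (0.89), it was 0.81 for Cav1 with Cavin3 but 0.60 for the neighbours Cav1 and Cav2, and it was lowest for Cavin2 with Cavin3 (0.10).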

How the data were processed

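LSECs of 1 control and 1 Maf LSEC-KO library were analysed. Alignment to mm10 and UMI counting were done by the authors with Cell Ranger 6.0.2, per the labels. The deposited values are raw UMI counts per gene and barcode, without normalization. The counter's settings for strand and introns are not given in the sources used here. The subtraction of empty droplets that the study describes needs barcodes below the deposited minimum of 500 UMIs and was not repeated, so free RNA remains in all levels.

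Barcodes of 1500 UMIs and 750 genes or more were clustered per library with Seurat 5.3.0 in R 4.3.3 (16 and 20 principal components, resolution 0.3), after log-normalization. Doublets were scored with Scrublet (scanpy 1.11.5), whose automatic limit marked 0 cells in each library. Instead, the highest-scoring cells were removed, 225 in control and 308 in Maf LSEC-KO, by the expected rate of 0.8% per 1000 barcodes. A cluster was called endothelial where 50% or more of its cells had a Pecam1 UMI and likewise for 7 or more of 14 endothelial genes. Other clusters were named, with the ending -like, from at least 3 markers among their 50 leading genes. LSECs had no Vwf UMI. They were merged with sctransform 0.4.2 (22 principal components, resolution 0.3). A cluster has a control majority if it took a larger share of the control than of the Maf LSEC-KO LSECs. Names and clusters were rebuilt and may differ from those of the study.

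Counts were summed per group of cells and divided by the group's UMIs, with 102 mitochondrial or ribosomal protein genes left out of that total. Intervals are exact (Poisson for levels and ratios, Clopper-Pearson for shares, scipy 1.17.1) at the 95% level and cover counting error only. LSECs held 1512 to 53852 UMIs in control and 1506 to 103948 UMIs in Maf LSEC-KO. With 1 library per condition no model or test was run, and "higher" means past the stated fold. Where a gene had 0 counts, 3 counts were taken as the limit.

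Named were the 9 genes, Maf, list genes of 10 CPM or more that were past 2-fold, the first 3 of each list that were not, and the 3 genes most alike to each of Plvap, Cav1, Emcn and Cd34 at 50 CPM or more in 1 group. Other genes were named after their values had been seen (Ehd2, Nos3, Nostrin, Wnt2, Cdh13 and the leading genes of clusters). The genes and lists were chosen with earlier results of these data known. The alternatives covered doublets, Vwf cells, mitochondrial share, depth, 3 scalings (1 with TMM of edgeR 4.0.16), marker filters and Maf classes. The computations were tested on simulated data. Figures were drawn with matplotlib 3.10.9.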

Additional observations from a re-analysis of the deposited data

Results flagged for a closer look

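Plvap had a pericentral-to-periportal log2 ratio of 0.98 in control LSECs and of -1.37 in Maf LSEC-KO LSECs, which is the opposite direction. Between LSECs with and without a UMI of Wnt2 or Cdh13, a split chosen after seeing the data, its log2 ratios were 0.66 and -0.30, nearer 0 in both libraries. Between the libraries, Plvap was higher in Maf LSEC-KO LSECs, with a log2 ratio of 0.94, but lower in endothelial cells with a Vwf UMI, with -0.15. Ehd4 behaved likewise, with log2 ratios of Maf LSEC-KO to control of 0.96 in LSECs and -0.40 in Vwf cells. With 1 library per condition none of these 3 differences between groups of cells was tested against the spread of animals. The quartiles rest on other landmark genes in each library, and the last quartile was the shallowest in both. The Vwf cells of the libraries were a different mix of clusters, as given above.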

How the results depend on the processing

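No paired analysis was possible because the labels give no replicate numbers and each condition had 1 library. The count of genes at least 2-fold higher was 4. It was 3 with each of the 3 other scalings, where Cavin1 was at 0.84 (all UMIs), 0.95 (median of ratios) and 0.91 (TMM). It was 5 with Vwf cells kept (Plvap 1.07), as mean CPM per cell (Plvap 1.04), without cycling LSECs (Plvap 1.02), without LSECs with markers of other cells (Plvap just past 2-fold) and after thinning (Ehd4 1.01). At a limit of 1.5-fold, added after seeing the data, it was 7. The count of genes at least 2-fold lower was 0 under each of 14 alternatives. Over these, the log2 ratios of Maf LSEC-KO to control LSECs ranged from 0.76 to 1.07 for Plvap, 1.18 to 1.46 for Cav1, -0.37 to -0.13 for Cav2, 0.84 to 1.06 for Cavin1, 3.58 to 5.18 for Cavin3, 0.64 to 0.85 for Emcn, 3.50 to 3.75 for Cd34 and 0.77 to 1.01 for Ehd4. Cavin2 ranged from -0.24 to 0.05 and turned positive with Vwf cells kept and without cycling LSECs. The median log2 ratio of all genes with at least 50 CPM was 0.10, and -0.11, 0.01 and -0.04 with scaling to all UMIs, to the median of ratios and with TMM factors. Between Maf classes, the ratios of Plvap, Cav1, Cavin1 and Cavin3 changed sign in 1 alternative each, Plvap ranging from -0.03 to 0.56, and that of Cd34 ranged from 0.49 to 1.88. Among all genes with at least 50 CPM, 8.03% were 2-fold higher and 5.59% lower. The causes were not tested. The pericentral-to-periportal ratio of Plvap in Maf LSEC-KO LSECs went from -1.37 to -0.30, that of Cavin3 from -1.30 to -0.53 and that of Cavin2 from -0.14 to 0.11, with LSECs split by a Wnt2 or Cdh13 UMI. Only 40 control cells gave the level of free RNA, which limits what they can tell of low control levels of Cavin3 and Cd34. Among landmark quartiles of control LSECs, the lowest levels were 6.06 CPM of Cd34 (4.48 to 8.01) and 0.33 CPM of Cavin3 (0.07 to 0.97). The part of free RNA in these levels was not tested.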
